A study of Mus musculus with 6 samples.

Results

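Lama5, Loxl2, Csgalnact1, Adgrf5, Dscaml1 and Neb are 6 of the 17438 genes in the count table, and they encode proteins of the extracellular matrix, of cell adhesion and of the cytoskeleton. They were picked by name for being higher in Cd48 KO than in WT group 2 innate lymphoid cells (ILC2s), so that difference is a description of how they were chosen and not a finding. That difference was an edgeR log2 fold change of 0.84 to 1.61 over all 6 libraries, with adjusted p from 0.544 to 0.690. Over the 5 libraries left when WT1 was set aside it was 0.80 to 1.29, with adjusted p from 2.07e-05 to 0.0338. The cells were lung ILC2s, sorted and cultured, and IL-33 is the treatment given for all 6 samples. The knockout mice carried a targeted Cd48 allele (B6.129S4-Cd48tm1Rsr/EpaulJ, here Cd48 KO, 3 libraries), and the others were WT (3 libraries). Both are labelled with the strain CB57BL/6 and both received IL-33. The labels give no age and do not say whether the libraries came from separate animals. The series' design text speaks of duplicates, while 3 samples are given for each genotype. The p-values therefore measure the spread between these libraries, which may be technical.

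ILC2s are lymphocytes of barrier tissues that answer IL-33 with type 2 cytokines. Laminins are secreted trimers of an alpha, a beta and a gamma chain that build basement membranes, and cells hold them through integrins and dystroglycan. Lysyl oxidases cross-link collagen outside the cell, chondroitin sulfate chains decorate proteoglycans, and adhesion G protein-coupled receptors join a large extracellular adhesion region to a signalling domain. Nebulin is best known from skeletal muscle, where it lies along the actin thin filament.

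Library totals ran from 16135210 to 17600475 counts in Cd48 KO and from 14928623 to 27450400 counts in WT. Levels are given as CPM, the counts scaled to a common library size. The Cd48 transcript averaged 4.84 ± 0.657 CPM in Cd48 KO and 48.8 ± 8.51 CPM in WT (SD, n = 3 each). ILC2 markers were high in every library, with 12 of 12 listed genes in the table and a summed level of 13515 to 14349 CPM in Cd48 KO and 11825 to 15863 CPM in WT. Of these 12, Il2ra and Il5 were called higher in Cd48 KO by edgeR without WT1, with log2 differences of 0.31 (SE 0.06) and 0.29 (SE 0.06). In that fit 6 of the 12 had an unadjusted p under 0.05 in either direction, as had 1865 of all 13643 tested genes. Across genes WT1 stood apart from the other libraries and carried fewer long transcripts, so the fold changes of the 6 genes are given with and without it. Between Cd48 KO and WT, edgeR called 4 of 13317 tested genes with all 6 libraries (0.0300%), and 248 of 13643 without WT1 (1.82%). Without WT1, 1.17% of tested genes were called higher in Cd48 KO.

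Lama5 encodes a laminin alpha chain of basement membranes and had the highest level per kilobase of the 6 genes. It stood at 336, 316 and 308 CPM in KO1, KO2 and KO3, against 53.1, 183 and 186 CPM in WT1, WT2 and WT3. Every Cd48 KO library was above every WT library, and WT1 was far below the other WT libraries. The log2 fold change was 1.19 (SE 0.44) with all 6 libraries and 0.80 (SE 0.06) without WT1. The lowest Cd48 KO library had 1.66 times the level of the highest WT library. Lama5 lies on chromosome 2 (GRCm38, 180176373 to 180225859, minus strand), and its longest annotated transcript has 11388 bases. The 250 bases before its RefSeq start (GRCm38.p6, chr2:180225860-180226109, minus strand) are shown because they hold motifs that the other windows below lack. Capitals mark GC boxes (GGGCGG, on either strand) and TGACGT, which is part of the cAMP response element.
Lama5 promoter: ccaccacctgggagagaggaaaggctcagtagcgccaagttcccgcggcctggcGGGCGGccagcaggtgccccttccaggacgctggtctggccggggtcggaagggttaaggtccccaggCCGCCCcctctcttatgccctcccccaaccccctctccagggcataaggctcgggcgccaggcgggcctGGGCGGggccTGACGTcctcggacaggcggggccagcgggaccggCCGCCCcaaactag
This window held 4 GC boxes and 1 TGACGT, with 72.4% G and C against a median of 52.4% over 32851 RefSeq windows of the same length. Of those windows 32.7% held a GC box and 6.5% held TGACGT on either strand.

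Loxl2 encodes a secreted lysyl oxidase that cross-links collagen and elastin. Its level was 24.6, 26.6 and 28.7 CPM in KO1, KO2 and KO3, against 5.52, 13.2 and 9.54 CPM in WT1, WT2 and WT3. The groups did not overlap, and WT1 was again the lowest. Its log2 fold change was 1.50 (SE 0.31) with all 6 libraries and 1.25 (SE 0.16) without WT1. Loxl2 lies on chromosome 14 (69609068 to 69695834, plus strand). The antisense gene Gm27177 shares 301 bases, or 5.57%, of the Loxl2 exons, and the sources do not say whether reads were counted by strand. Gm27177 itself averaged 2.19 ± 1.38 CPM in Cd48 KO and 2.40 ± 1.78 CPM in WT (SD, n = 3 each), well below Loxl2 in both groups.

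Csgalnact1 encodes the enzyme that starts a chondroitin sulfate chain on its linker. It stood at 21.5, 23.9 and 21.2 CPM in KO1, KO2 and KO3, against 9.29, 11.0 and 13.1 CPM in WT1, WT2 and WT3. The groups did not overlap, and WT1 lay close to the other WT libraries. The log2 fold change was 0.99 (SE 0.18) with all libraries and 0.87 (SE 0.15) without WT1. Csgalnact1 lies on chromosome 8 (68356781 to 68735146, minus strand) and has the shortest longest transcript of the 6 genes, 3943 bases.

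Adgrf5 encodes an adhesion G protein-coupled receptor known in lung for restraining surfactant release by alveolar epithelial cells. Its level was 12.3, 17.2 and 16.8 CPM in KO1, KO2 and KO3, against 2.44, 6.07 and 6.50 CPM in WT1, WT2 and WT3. The groups did not overlap, and WT1 was the lowest library. Adgrf5 had the largest log2 fold change of the 6 genes in both edgeR fits, 1.61 (SE 0.37) with all libraries and 1.29 (SE 0.20) without WT1. Without WT1 Loxl2 was close to it, at 1.25 (SE 0.16). In limma-voom without WT1 their order was reversed, with 1.30 (SE 0.17) for Loxl2 and 1.27 (SE 0.22) for Adgrf5. Adgrf5 was also the least deeply read of the 6 genes, with 35 counts in WT1 and 91 in WT2. Adgrf5 lies on chromosome 17 (43360451 to 43459557, plus strand). RefSeq gives it a pair of starts (chr17:43360181-43360430 and chr17:43389216-43389465, plus strand, 250 bases before each), shown for comparison with the Lama5 window.
Adgrf5 first promoter: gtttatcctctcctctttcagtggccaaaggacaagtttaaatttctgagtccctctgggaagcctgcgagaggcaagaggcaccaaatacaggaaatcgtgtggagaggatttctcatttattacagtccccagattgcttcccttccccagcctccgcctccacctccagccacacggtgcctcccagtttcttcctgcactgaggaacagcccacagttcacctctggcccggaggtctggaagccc
Adgrf5 second promoter: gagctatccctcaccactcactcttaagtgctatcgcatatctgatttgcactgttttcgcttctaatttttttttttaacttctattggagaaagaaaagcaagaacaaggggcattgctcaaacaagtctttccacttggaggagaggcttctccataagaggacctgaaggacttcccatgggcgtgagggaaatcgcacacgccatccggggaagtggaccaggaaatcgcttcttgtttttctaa
Neither window has capitals, because none of the motifs searched was found in it. Besides the GC box and TGACGT, the search covered both strands for a GATA site spelled AGATAA, found in 10.0% of all windows, and another spelled TGATAA, found in 7.9%. It also covered the AP-1 site TGACTCA, found in 4.5% of windows, the E-box CACGTG, found in 6.0%, and the TATA box TATAAA, found in 12.4%. The Adgrf5 windows had 54.4% and 44.8% G and C. No motif overlapped another in these windows, and a match or its absence says nothing of binding. For the other 4 genes no promoter sequence is shown.

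Dscaml1 encodes a cell adhesion protein of the immunoglobulin superfamily, known from neurons, where it binds its own kind on other cells. Its level was 26.0, 24.8 and 25.9 CPM in KO1, KO2 and KO3, against 16.3, 12.1 and 14.5 CPM in WT1, WT2 and WT3. It varied least within each genotype, and it was the exception among the 6 genes in that WT1 was the highest WT library. The log2 fold change was 0.84 (SE 0.16) with all libraries and 0.94 (SE 0.14) without WT1. Dscaml1 lies on chromosome 9 (45426628 to 45753712, plus strand), with a longest transcript of 6886 bases.

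Neb encodes nebulin, a giant protein that binds actin along its length. It stood at 37.6, 38.5 and 51.6 CPM in KO1, KO2 and KO3, against 11.8, 23.2 and 15.4 CPM in WT1, WT2 and WT3. KO3 was the highest library, and the groups did not overlap. The log2 fold change was 1.34 (SE 0.28) with all libraries and 1.16 (SE 0.21) without WT1. Neb lies on chromosome 2 (52136647 to 52378474, minus strand), and only 0.0766% of 13053 tested genes with a known length have a longer transcript than its 22489 bases. Counts were given per gene, and which part of the transcript they came from was not analysed here. The antisense gene Gm13522 shares 45 bases of its exons and had 10 to 12 counts in Cd48 KO and 7 to 16 counts in WT.

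**Figure D1:**
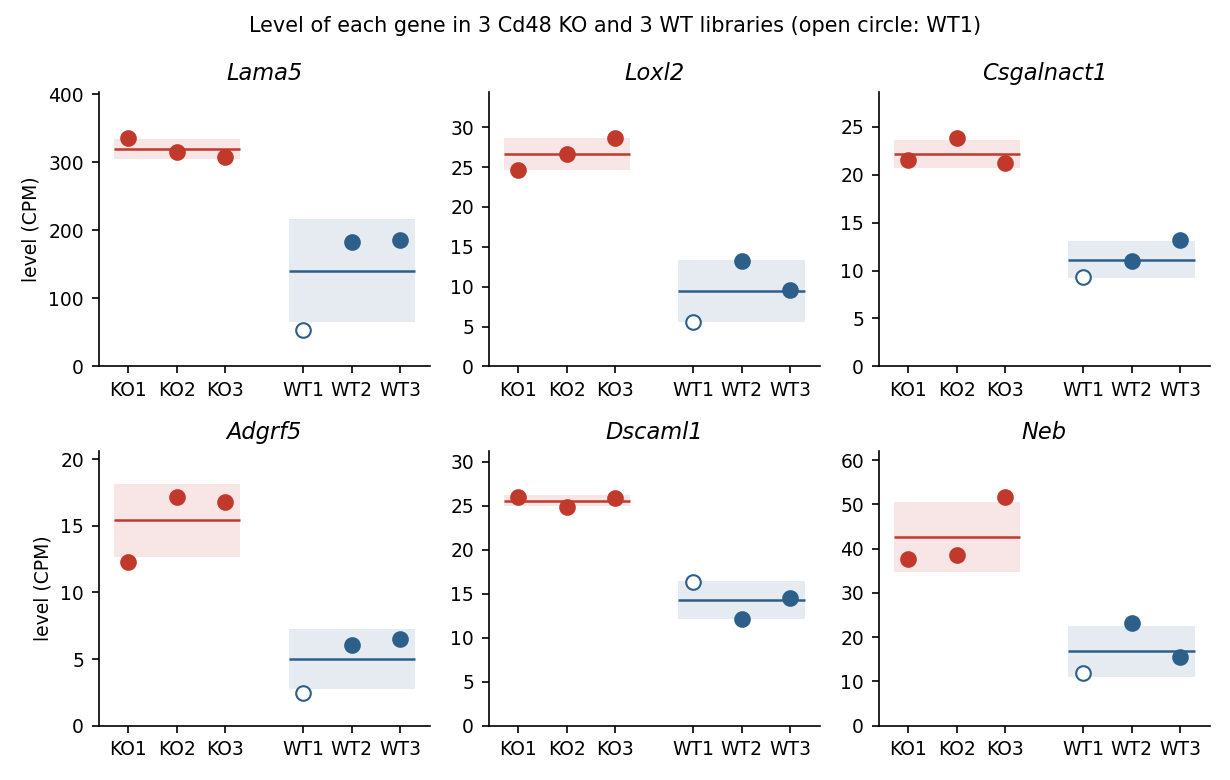
Level (CPM) of each gene in each library, Cd48 KO in red and WT in blue, with the open circle for WT1. Lines are group means and shaded bands are ± 1 SD (n = 3 each). In each panel the 3 Cd48 KO libraries lie above the 3 WT libraries, and WT1 is the lowest library in 5 of the 6 panels.

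With all 6 libraries edgeR called 0 of the 6 genes, against 0.0150% of tested genes called higher in Cd48 KO. All 6 were higher in Cd48 KO with an unadjusted p under 0.05, as were 2.94% of all tested genes. On the same libraries DESeq2 called 5 of them, all but Lama5, where it called 0.421% of tested genes higher in Cd48 KO. The count was 0 of 6 in limma-voom, against 0.0150% of tested genes called higher. Weighting the libraries by quality in limma-voom led to 6 calls, against 0.383% of tested genes called higher. The weight was 0.0919 for WT1, and the other libraries had 1.08 to 2.36. Without WT1 edgeR called all 6, and 3 of them when KO3 was left out as well. Every Cd48 KO library lay above every WT library for 6 of 6 genes, as for 10.2% of all tested genes. Above WT2 and WT3 alone the background was 15.8%. These counts follow from how the genes were picked.

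Transcript length was compared next, since 5 of the 6 genes have a longest transcript of more than 4 kilobases and WT1 was the lowest library for 5 of the 6, as for 39.5% of all tested genes. WT1 differed from the mean of WT2 and WT3 by a median log2 difference of 0.28 for transcripts under 1 kilobase (1294 genes), -0.41 for those of 4 to 8 kilobases (3761 genes) and -0.91 for those of 8 kilobases or more (628 genes). The same difference was -1.79 for Lama5 and -1.32 for Adgrf5, both lower than the -0.91 of their length class. It was -1.01 for Loxl2, lower than the -0.41 of its class, and -0.37 for Csgalnact1, where the class of 2 to 4 kilobases had 0.03 (5083 genes). Neb, at -0.68, and Dscaml1, at 0.30, were less low than their classes. Within their classes, 22.3% of genes were at or below the WT1 difference of Lama5, 25% of Loxl2, 27.3% of Csgalnact1, 36.1% of Adgrf5, 59.1% of Neb and 80.0% of Dscaml1.

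**Figure D2:**
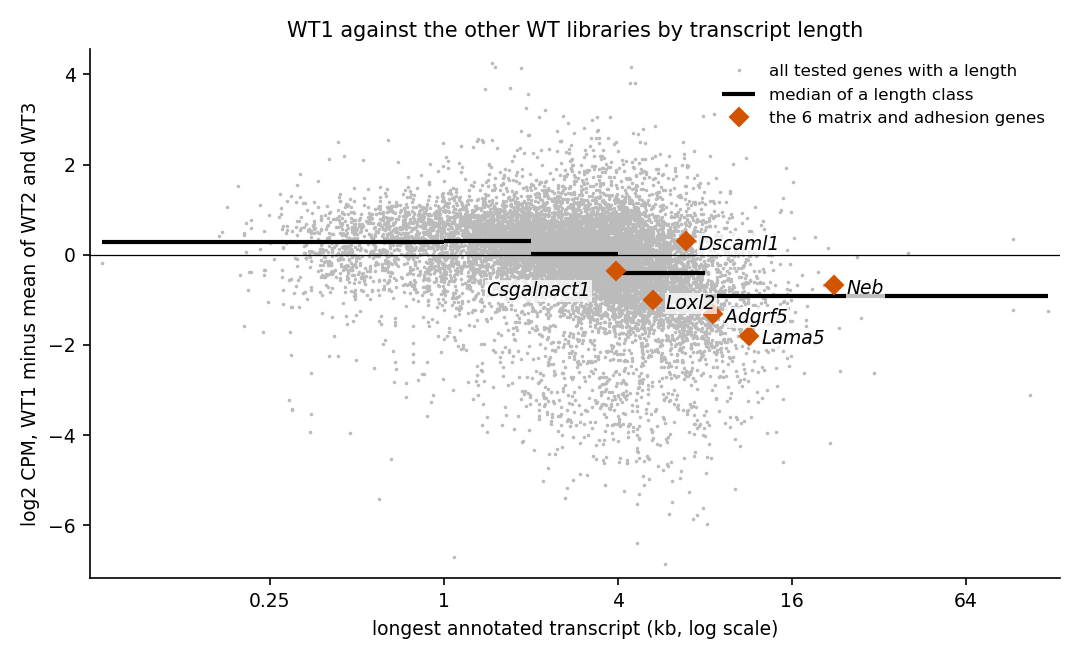
Log2 CPM of WT1 minus the mean of WT2 and WT3 (vertical axis) against the longest annotated transcript in kilobases (log axis). Grey points are tested genes, black lines are medians of length classes and diamonds are the 6 genes. The medians fall to -0.91 at 8 kilobases or more, and Lama5 lies lowest of the 6 at -1.79.

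The length classes lay closer together without WT1. The median log2 fold change of Cd48 KO over WT was -0.07 for transcripts under 1 kilobase and 0.05 for those of 8 kilobases or more, while with all 6 libraries these medians were -0.19 and 0.26. The share of genes called higher in Cd48 KO without WT1 was 0.372% under 1 kilobase, 1.62% at 4 to 8 kilobases and 1.88% at 8 kilobases or more. A fit in which each library's dependence on transcript length was taken out gave similar values when WT1 was left out. Lama5 then had a log2 fold change of 0.76 (SE 0.05), Loxl2 1.22 (SE 0.17), Csgalnact1 0.85 (SE 0.15), Adgrf5 1.26 (SE 0.21), Dscaml1 0.90 (SE 0.13) and Neb 1.12 (SE 0.26). Of these, Neb was no longer called. With all 6 libraries the same correction moved Dscaml1 to 0.53 (SE 0.28) and Neb to 0.89 (SE 0.27), and Lama5 to 0.98 (SE 0.22). All 6 genes stayed higher in Cd48 KO in both corrected fits. With all 6 libraries the corrected edgeR fit called 0 of them, with adjusted p from 0.377 to 0.652.

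**Figure D3:**
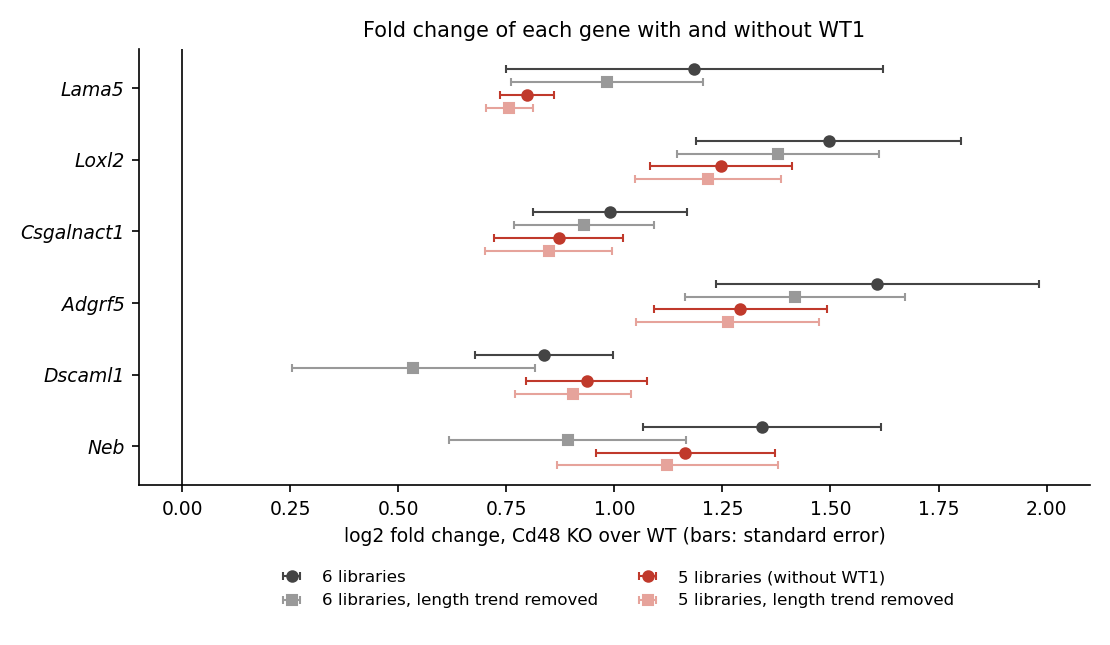
Log2 fold change of Cd48 KO over WT for each gene, with standard errors as bars. Circles are fits without and squares fits with the transcript length trend removed, in greys for 6 libraries and in reds for the 5 without WT1. All values lie above 0, from 0.53 for Dscaml1 to 1.61 for Adgrf5.

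Levels can be set against each other only per length, here as CPM per kilobase of the longest transcript. In Cd48 KO, Lama5 had 28.1 ± 1.27, Csgalnact1 5.63 ± 0.367, Loxl2 5.01 ± 0.385, Dscaml1 3.72 ± 0.0945, Neb 1.89 ± 0.350 and Adgrf5 1.80 ± 0.318 CPM per kilobase (SD, n = 3). Csgalnact1 and Loxl2 overlapped between libraries, as did Neb and Adgrf5, while Lama5 and Dscaml1 stood clear of their neighbours. In WT, Lama5 had 12.4 ± 6.66, Csgalnact1 2.83 ± 0.489, Dscaml1 2.08 ± 0.310, Loxl2 1.77 ± 0.728, Neb 0.747 ± 0.258 and Adgrf5 0.586 ± 0.261 CPM per kilobase (SD, n = 3). Lama5 stood clear in WT too, while Csgalnact1, Dscaml1 and Loxl2 overlapped in that order, and so did Neb and Adgrf5. The lowest Loxl2 library, at 1.04 CPM per kilobase in WT1, was just above the highest Neb library, at 1.03 in WT2. Dividing by the union of all annotated exons gave 4.36 for Csgalnact1 and 4.92 for Loxl2, and 1.60 for Neb and 1.71 for Adgrf5, in Cd48 KO. This turned the order round within both overlapping pairs.

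None of the tested laminin chains besides Lama5 was called. Lamc1, the common gamma chain, averaged 101 ± 30.1 CPM in Cd48 KO and 82.6 ± 38.6 CPM in WT (SD, n = 3 each). Its log2 fold change was 0.29 (SE 0.40) with all libraries and -0.05 (SE 0.26) without WT1. Per kilobase Lamc1 had 13.3 ± 3.95 CPM in Cd48 KO, below Lama5. Of 12 listed laminin chains and netrins besides Lama5, 5 were in the table and 3 could be tested, with 0 called higher and 0 lower in either fit. The beta chain gene Lamb1 had 0 counts in KO1 and KO2 and 4 in KO3, and 0, 1 and 6 counts in WT1, WT2 and WT3. Lamb3, another beta chain, had 12, 22 and 11 counts in KO1, KO2 and KO3 and 0, 16 and 12 counts in WT1, WT2 and WT3. Of 9 laminin receptor genes, 7 were tested and 0 were called in either fit, with a median log2 fold change of 0.11 without WT1 against 0.00048 over all genes. Itgb1, the shared integrin beta chain, had -0.05 (SE 0.07) and Dag1, dystroglycan, 0.16 (SE 0.11).

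Among other matrix genes Col18a1, a basement membrane collagen, rose without WT1. It averaged 677 ± 20.0 CPM in Cd48 KO (SD, n = 3) and 556 ± 27.0 CPM in WT2 and WT3 (SD, n = 2). In edgeR the log2 difference was 0.29 (SE 0.06, adjusted p = 0.0227). It was 1 of 8 tested basement membrane and matrix genes, and the other 7 were not called, with a list median of 0.18. Ecm1, also abundant, had 0.18 (SE 0.08). With all 6 libraries 0 of these 8 were called by edgeR, and 1 had an unadjusted p under 0.05. That gene was Agrn, which was lower in Cd48 KO. In edgeR its log2 fold change was -1.94 (SE 0.49) with all 6 libraries and -1.43 (SE 0.46) without WT1. Agrn had 11, 8 and 16 counts in KO1, KO2 and KO3 and 62, 30 and 49 counts in WT1, WT2 and WT3.

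Of 11 tested lysyl oxidase and collagen processing genes besides Loxl2, 1 rose without WT1, 0 fell and 10 were not called. The riser was P4ha3, a subunit of the prolyl hydroxylase that stabilises collagen, at 7.63, 11.3 and 12.9 CPM in KO1, KO2 and KO3 and 5.94, 3.94 and 4.24 CPM in WT1, WT2 and WT3. In edgeR the log2 difference was 1.38 (SE 0.25, adjusted p = 0.0151). The partner subunit gene P4hb had -0.02 (SE 0.05) and the collagen lysyl hydroxylase gene Plod2 0.27 (SE 0.09), neither called. The close relative Loxl3 averaged 1.27 ± 0.226 CPM in Cd48 KO and 2.24 ± 1.15 CPM in WT (SD, n = 3 each). Per kilobase Loxl3 had 0.310 CPM and Loxl4 0.0752 CPM in Cd48 KO, below the 5.01 CPM of Loxl2. The median over the list was -0.01.

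Of 19 tested genes of chondroitin sulfate synthesis besides Csgalnact1, 0 were called in either fit, and their median log2 fold change was -0.02 without WT1. Csgalnact2, which makes the same kind of enzyme, averaged 30.8 ± 4.43 CPM in Cd48 KO and 25.7 ± 3.63 CPM in WT (SD, n = 3 each), with 0.18 (SE 0.14) without WT1. Chpf2 and the sulfotransferase gene Chst12, the most abundant per length, had -0.06 (SE 0.06) and 0.10 (SE 0.09). Among 8 tested proteoglycan core genes 0 rose and 1 fell without WT1. Cd74, the invariant chain, which can carry chondroitin sulfate, fell to 34.7 ± 2.17 CPM in Cd48 KO (SD, n = 3), against 52.2 ± 5.88 CPM in WT2 and WT3 (SD, n = 2). In edgeR the log2 difference was -0.58 (SE 0.11, adjusted p = 0.0167). Srgn, the serglycin core protein of lymphocyte granules, had -0.03 (SE 0.06) and the hyaluronan receptor gene Cd44 0.02 (SE 0.05).

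Of 12 tested adhesion G protein-coupled receptors besides Adgrf5, 1 rose without WT1 and 11 were not called, with a median log2 fold change of 0.41. Adgrg3, a receptor of leukocytes, stood at 21.1, 27.1 and 25.6 CPM in KO1, KO2 and KO3 and 8.38, 15.1 and 14.0 CPM in WT1, WT2 and WT3. In edgeR the log2 difference was 0.76 (SE 0.15, adjusted p = 0.0236). Adgre5, the most abundant, had -0.07 (SE 0.07). The 5 tested neural adhesion proteins besides Dscaml1 had 0 calls and a median of -0.11, and the abundant L1cam and Cntn1 had -0.11 (SE 0.11) and -0.02 (SE 0.10).

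The nebulin family and thin filament list had 13 tested genes besides Neb, 0 of them called in either fit, with a median log2 fold change of 0.04. The shorter relatives Nebl and Lasp1 had -0.05 (SE 0.23) and -0.07 (SE 0.07), and the abundant capping protein and tropomyosin genes Capzb and Tpm3 had -0.08 (SE 0.05) and 0.01 (SE 0.05). Over all 9 lists without WT1, 3 of 86 tested genes rose, 1 fell and 82 were not called, against 1.17% of all tested genes called higher and 1.82% called in either direction. All 4 of these calls were lost when KO2, KO3 or WT2 was left out as well. With all 6 libraries edgeR called 0 of the 86, and 10 had an unadjusted p under 0.05, as had 6.89% of all tested genes.

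**Figure D4:**
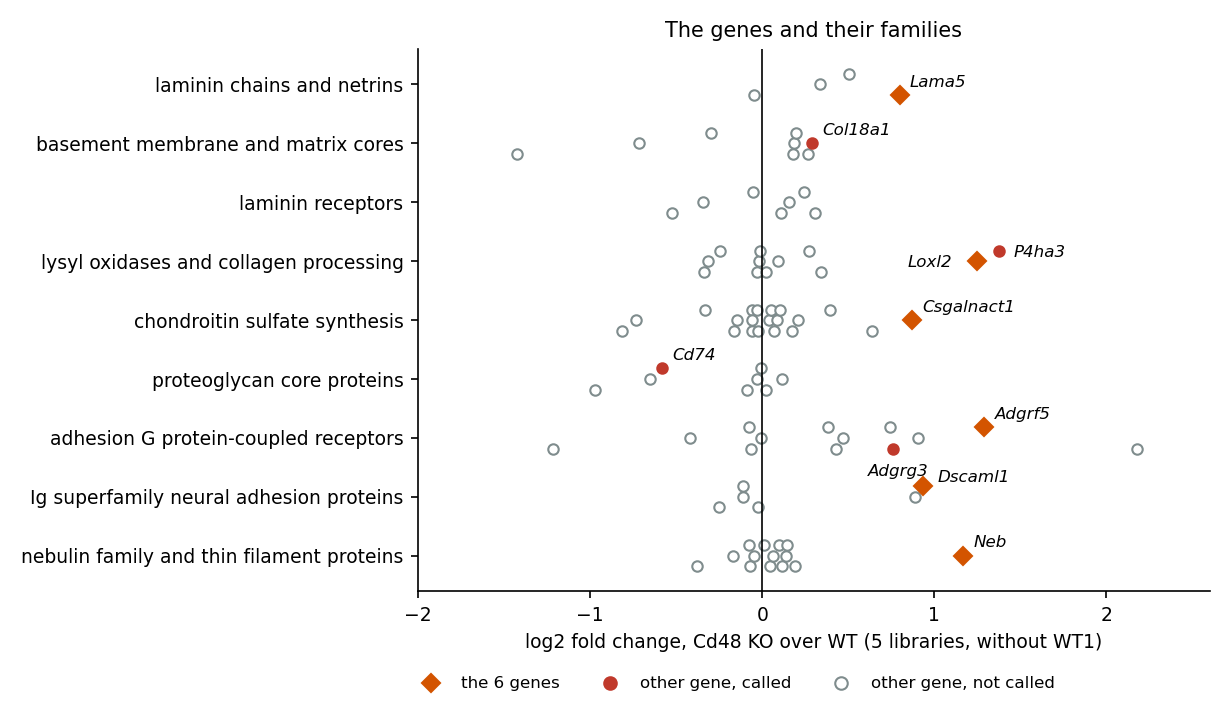
Log2 fold change of Cd48 KO over WT without WT1 for the genes of 9 families. Diamonds are the 6 genes, filled red circles other genes called by edgeR and open circles genes not called. The called relatives are Col18a1, P4ha3 and Adgrg3 on the higher side and Cd74 on the lower.

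Matrix and adhesion transcripts can also come from other cells in a sort, and in such samples fewer cells of a type and less RNA per cell cannot be told apart. Of 8 fibroblast markers only Col1a2 was in the table, and it had 0 counts in the 3 Cd48 KO libraries and at most 0.668 CPM in WT. Of 8 endothelial markers 2 were in the table, namely Pecam1, which leukocytes also express, and Vwf, and their summed level was 40.1 to 41.9 CPM in Cd48 KO and 29.1 to 40.2 CPM in WT. Vwf itself averaged 0.188 ± 0.326 CPM in Cd48 KO and 0.277 ± 0.240 CPM in WT (SD, n = 3 each). Of 10 muscle markers 7 were in the table and summed to 2.36 to 3.03 CPM in Cd48 KO and 1.75 to 2.79 CPM in WT. The skeletal muscle actin gene Acta1 had 0.25 CPM per kilobase in Cd48 KO, below the 1.89 CPM per kilobase of Neb. The only neuronal marker of 6 in the table, Tubb3, reached at most 0.799 CPM in Cd48 KO and 1.33 CPM in WT.

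Of 10 lung epithelial markers, 8 could be tested without WT1, where 1 fell, 0 rose and 7 were not called, and 1 of the 8 had a positive log2 fold change. With all libraries 0 of 6 tested were called by edgeR, and 3 had an unadjusted p under 0.05. All 10 were in the table, and they summed to 18.3 to 31.2 CPM in Cd48 KO and 36.4 to 90.4 CPM in WT, with Krt8 at 0 in the 3 Cd48 KO libraries. Epcam averaged 10.6 ± 2.07 CPM in Cd48 KO and 18.7 ± 1.45 CPM in WT (SD, n = 3 each), and edgeR called it lower without WT1 (log2 difference -0.83, SE 0.18, adjusted p = 0.0347). Scgb1a1, the club cell secretory protein, averaged 4.35 ± 7.38 CPM in Cd48 KO and 22.7 ± 22.9 CPM in WT (SD, n = 3 each), with wide spread in both groups. Macrophage markers summed to 6.57 to 14.6 CPM in Cd48 KO and 9.08 to 29.1 CPM in WT, with 7 of 8 in the table and Mrc1 at 0 in Cd48 KO. The part of these cells in the levels of the 6 genes was not tested.

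The mean profile of the 6 genes, as log2 CPM scaled to unit variance over the 6 libraries, was most like that of Esco2, Epas1, Arhgap19, Zfp46 and Fads2 among 8670 other genes averaging 10 CPM or more. Pearson's r over 6 libraries ran from 0.993 for Fads2 to 0.996 for Esco2, and 110 genes reached 0.95. The 6 genes were picked for being higher in Cd48 KO, and the libraries fall into genotypes, so these values are a description only. Epas1, the hypoxia-inducible factor subunit gene, averaged 70.1 ± 3.21 CPM in Cd48 KO and 43.0 ± 5.05 CPM in WT (SD, n = 3 each). Esco2, which acetylates cohesin in S phase, averaged 41.5 ± 1.98 CPM in Cd48 KO and 24.5 ± 3.85 CPM in WT (SD, n = 3 each). Arhgap19, Fads2 and Zfp46 had log2 fold changes of 0.71 (SE 0.10), 0.54 (SE 0.12) and 0.16 (SE 0.11) without WT1. The gene whose loss defines the genotype lies on chromosome 1, and none of the 6 genes does.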

How the data were processed

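RNA was sequenced from IL-33-treated lung ILC2s in 6 samples, 3 Cd48 KO and 3 WT, grouped by sample title. Per the labels' protocols, 10 pg of RNA per sample went into SMARTer Ultra Low Input cDNA synthesis. STAR 2.7.8, Partek 10.0, DESeq2 and build mm10 are named in the submitters' processing notes. For the counter, annotation and strand setting, the sources say nothing. The values deposited by the authors are estimated counts, not normalized as far as the numbers show (60.2% of non-zero values are whole within 0.001). They were rounded for testing.

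Tests used edgeR 4.0.16 under R 4.3.3 (robust quasi-likelihood fit, TMM, filterByExpr with minimum count 10 and total 15, genotype as the only term) and Benjamini-Hochberg adjustment over all tested genes, with calls under 0.05. The 6 libraries were fitted, and again without WT1. Standard errors come from the estimate and its F statistic. Other settings used DESeq2 1.42.0, limma 3.58.1 (voom), other size factors and filters, a lowess trend on transcript length (span 0.3), a replicate block and left-out libraries. CPM uses TMM sizes of the 6 libraries, and logs a prior count of 2. Positions and lengths come from GENCODE M21 (GRCm38), which matched 17022 of 17438 symbols, and promoters from RefSeq (GRCm38.p6), which matched 2 of 6 genes. No 2 libraries of the same genotype agreed within sampling noise. The chi-square per gene was 98.4 for WT1 with WT2 and 136 for WT1 with WT3, and 5.22 to 9.29 for the other pairs.

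Genes, lists and rules were chosen with earlier results of these data known. Named are Cd48, the 6 genes, annotated overlaps, up to 3 called and the 2 most abundant genes of each family list, the 2 most abundant of each marker list and the 5 of most similar profile, except 1 gene that is not reported here. Lamb1, Lamb3, Loxl3, Loxl4, Csgalnact2, Nebl, Lasp1, Il2ra, Krt8 and Mrc1 were added as relatives or list zeros after their values were seen. Agrn was also added after its values were seen, for its unadjusted p.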

Additional observations from a re-analysis of the deposited data

How the results depend on the processing

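The 6 genes stayed higher in Cd48 KO in all 16 alternatives with 6 libraries and all 15 without WT1. With 6 libraries their log2 fold changes ran from 0.53 (Dscaml1, length trend removed) to 1.85 (Adgrf5, without WT3), and without WT1 from 0.75 (Csgalnact1, without WT2) to 1.48 (Loxl2, without WT2). With 6 libraries, DESeq2 called 108 genes, 5 of the 6 genes and 2 list genes, and voom with quality weights called 95, 6 and 1. Leaving out 1 library gave 0 to 248 genes, 0 to 6 of the 6 genes and 0 to 4 list genes. The upper values came without WT1, and 0 genes were called without KO1 (662 at an unadjusted p under 0.05) or KO3 (335). Without WT1, DESeq2 called 412 genes, against 248 by edgeR, and a fit that was not robust 157. Leaving out 1 more library gave 65 (without KO3) to 517 (without KO1) genes, 3 to 6 of the 6 genes and 0 to 4 list genes. Without KO3 the calls of Csgalnact1, Adgrf5 and Neb were lost, and without KO2 those of Csgalnact1 and Neb. Without WT2 Csgalnact1 was lost, and without WT3 or with the length trend removed Neb was lost. The list calls Col18a1, P4ha3, Cd74 and Adgrg3 were all lost without KO2, KO3 or WT2. Per kilobase of the exon union, Cd48 KO levels were 4.36 CPM for Csgalnact1 and 2.87 CPM for Dscaml1. The causes were not tested.

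Same-numbered libraries did not deviate together from their group means (r of -0.05, -0.04 and -0.01 across genes). WT1 stood far from the other WT libraries and weighs on every WT deviation. These values therefore cannot tell whether equal numbers mark pairs. With the replicate block, edgeR called 0 genes with 6 libraries (776 at an unadjusted p under 0.05). Without WT1 the blocked fit called 570, 233 of them higher in Cd48 KO, against 159 of 248 without the block. In that fit KO1 is alone in its block and adds nothing to the contrast, which rests on KO2, KO3, WT2 and WT3. The block changed no call of the 6 genes with or without WT1. Adgrf5 rests on 35 to 297 counts per library, the fewest of the 6 genes. Where WT1 and another WT library are left out, the lone WT library is assumed to vary like the Cd48 KO libraries.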
